A study of Rattus norvegicus with 22 samples.

Results

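Kidney RNA of rats that had received the medium conditioned by human adipose-derived stromal cells (ASC-derived CM) was compared with that of untreated rats, across every gene measured. The rats were taken by their treatment label, CM for 4 rats and Control for 6 rats, so that 10 of the 22 rats of the series entered the comparison. All of them were male PKD/Mhm (Cy/+) rats aged 8 months, which are heterozygous for a missense mutation of Anks6 and develop kidney cysts. The untreated rats carried the same mutation, and no group without cysts was analysed here. The ASC-derived CM was the supernatant of ASC suspended in DMEM with human serum, given monthly. The labels name no route for it, the methods of the study name the i.v. route and the series description names the i.p. route. A group given medium that had not been in contact with cells was not analysed here, so that the products of the cells and the serum in the medium cannot be told apart. The other 12 rats, 6 after ASC i.p. and 6 after ASC i.v., served to estimate the spread between rats and as a second reference.

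The kidney is built of nephron segments that carry out successive steps of urine formation. Podocytes hold the filter, the proximal tubule takes back glucose, amino acids and bicarbonate, and the thick ascending limb and distal convoluted tubule recover salt. The collecting duct holds principal cells, which absorb sodium and water, and intercalated cells, which secrete acid or base. In polycystic kidneys, tubule segments widen into cysts, and inflammation, fibrosis and a shift towards glycolysis are well known features.

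The 10 libraries were similar in size, with 12291823 to 14552261 counts per rat. The first principal component took 46.6% of the variance over the 10 rats, and CM rats 1 and 2 stood at 61.0 and 35.0 on it, while CM rats 3 and 4 stood at -7.95 and -19.4 and the untreated rats between -30.4 and 11. In CM rats 1 and 2, 9.69% and 5.68% of the 12867 genes tested lay more than 2-fold from the median of the untreated rats. In CM rats 3 and 4 this share was 1.54% and 1.65%. Each untreated rat, set against the median of the other 5, had 1.26% to 3.01% of genes at this distance. The mean log2 CPM (CPM stands for counts scaled to the same TMM-adjusted library total in every rat) of 8 podocyte markers was 4.47 and 4.67 in CM rats 1 and 2, 6.02 and 6.66 in CM rats 3 and 4, and 5.81 to 6.67 in the untreated rats. The mean of 10 endothelial markers was 5.51 and 5.48 in CM rats 1 and 2, against 6.17 to 6.56 in untreated rats. Genes used by the last part of the proximal tubule were high in these 2 rats. Slc7a13, an amino acid transporter of that segment, was at 3335 CPM in CM rat 1, 1100 CPM in CM rat 2, 363 CPM in CM rat 3, 64.7 CPM in CM rat 4 and 12.6 to 638 CPM in untreated rats. Slc14a2, the urea transporter of the inner medulla, was at 46.2 CPM in CM rat 2, while the other 9 rats stayed at 0.717 CPM or below. The untreated rats differed in this respect too, since the mean log2 CPM of 5 genes of the S3 segment ran from 2.23 to 5.02 among them. Values of the CM rats are therefore given in the order of rats 1 to 4, and many results are also given without CM rats 1 and 2. In whole-kidney RNA, fewer cells of a type and less RNA per cell cannot be told apart, and the part that the sampled piece of kidney played in these differences was not tested.

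**Figure D1:**
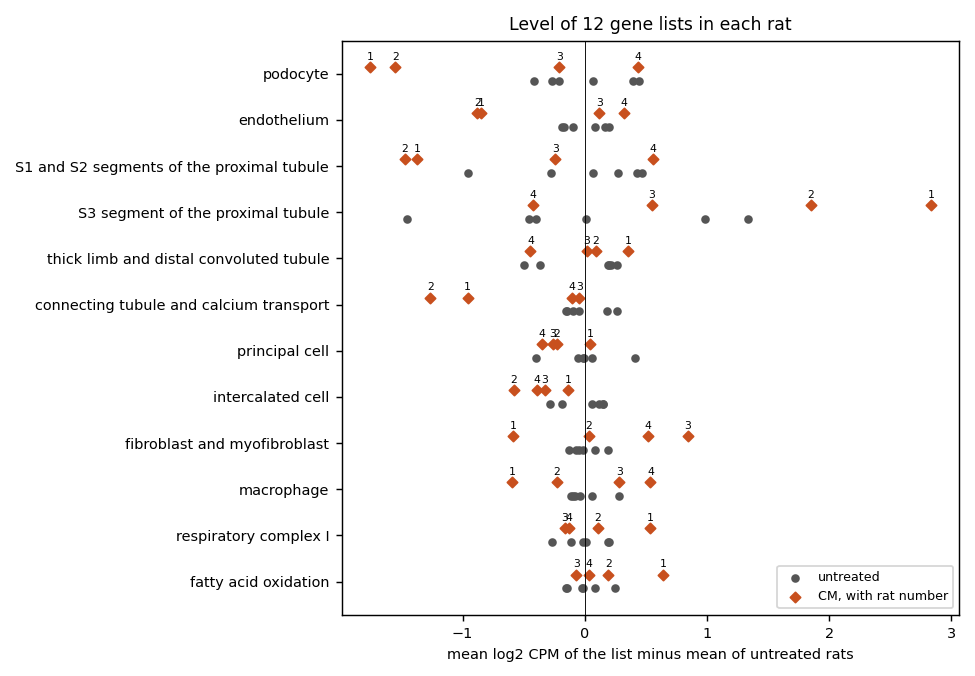
Mean log2 CPM of 12 gene lists in each rat, as the difference from the mean of the 6 untreated rats (grey points); the 4 CM rats are orange diamonds with their numbers. CM rats 1 and 2 lie left of all untreated rats for podocyte and endothelial markers and right of them for the S3 segment of the proximal tubule.

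No gene passed edgeR's quasi-likelihood test at a Benjamini-Hochberg adjusted p of 0.05 (0 of 12867 genes, 0.0%), and the smallest adjusted p was 0.194. Before adjustment 849 genes (6.6%) had a p below 0.05, of which 366 (2.84%) were higher and 483 (3.75%) lower after ASC-derived CM. All 4 CM rats lay outside the 6 untreated rats in 183 genes (1.42%), 56 (0.435%) above them and 127 (0.987%) below. On the deposited TPM values these counts were 34 above and 144 below. DESeq2 called 5 of 12865 genes (0.0389%), which were Mast3, Serpine2 and Fgd3 as higher and Pcdhga7 and Med12l as lower. The median size of a difference was 0.10 on the log2 scale, with a median standard error (SE) of 0.15. Of the 306 genes whose groups differed by more than 2-fold, 259 were higher and 47 lower after ASC-derived CM. Without CM rats 1 and 2, 124 genes (0.95% of 13053) had an unadjusted p below 0.05 as higher and 235 (1.8%) as lower, and none passed the adjustment.

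**Figure D2:**
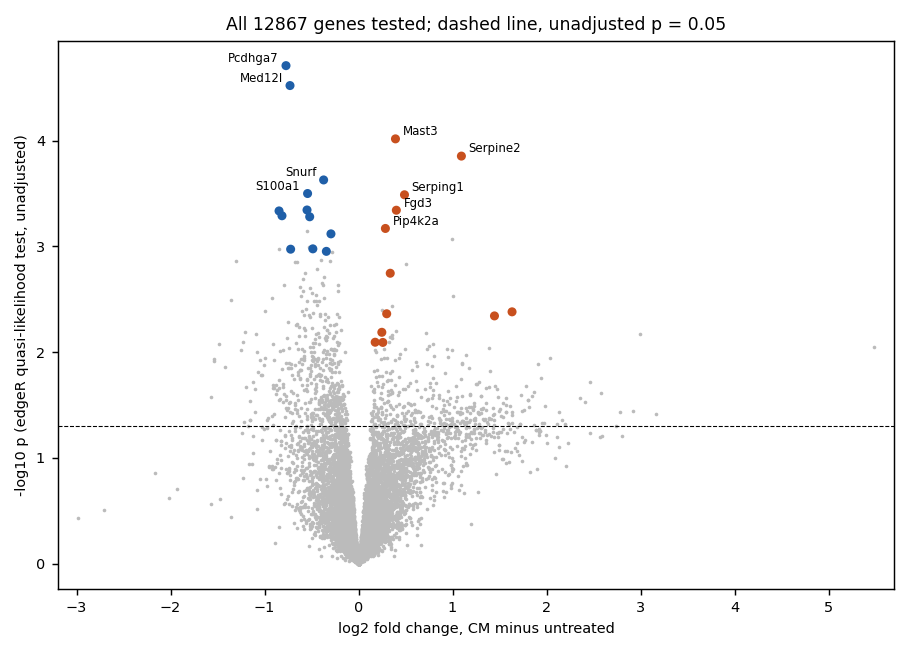
Log2 fold change of CM over untreated rats (horizontal axis) against -log10 of the unadjusted p (vertical axis) for the 12867 genes tested; coloured points are the 12 higher and 12 lower genes with the smallest p among those whose groups do not overlap, and 9 of them are named. The genes with the smallest p, Pcdhga7 and Med12l, lie on the lower side, and most points beyond 2-fold on the higher side lie near or under the dashed line.

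Genes of the intercalated cell tended to be lower after ASC-derived CM. Of 7 markers tested, 5 had an unadjusted p below 0.05 as lower and none as higher, where 3.75% and 2.84% of all genes did. The median of the list was -0.45 on the log2 scale, against a median of -0.00 over all genes. With 1 rat omitted at a time the median ranged from -0.50 to -0.36. Without CM rats 1 and 2 it was -0.39, with 4 of 7 markers lower at an unadjusted p below 0.05, where 1.8% of all genes were. With the podocyte score of each rat as a covariate it was -0.34, also with 4 of 7, where 3.05% of all genes were lower and 2.25% higher at this p. No member passed the adjustment over all genes. The promoters of Slc26a4 and Atp6v1b1 are shown because the 4 CM rats and the 6 untreated rats did not overlap in these genes, and that of Serpine2 because it had the largest difference among the genes that DESeq2 called. They are the 250 bases before the RefSeq start of each gene in the rat assembly GRCr8, 5′ to 3′ on the strand of the gene. Capitals mark matches to the forkhead motif TGTTTAC and to the GC box GGGGCGGGG, searched on both strands.
Slc26a4, chr6:53873217-53873466, minus strand: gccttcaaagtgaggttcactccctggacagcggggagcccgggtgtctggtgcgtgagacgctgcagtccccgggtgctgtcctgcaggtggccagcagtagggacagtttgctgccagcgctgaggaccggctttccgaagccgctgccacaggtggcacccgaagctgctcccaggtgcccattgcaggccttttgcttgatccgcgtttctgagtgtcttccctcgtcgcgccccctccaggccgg
Atp6v1b1, chr4:117781194-117781443, plus strand: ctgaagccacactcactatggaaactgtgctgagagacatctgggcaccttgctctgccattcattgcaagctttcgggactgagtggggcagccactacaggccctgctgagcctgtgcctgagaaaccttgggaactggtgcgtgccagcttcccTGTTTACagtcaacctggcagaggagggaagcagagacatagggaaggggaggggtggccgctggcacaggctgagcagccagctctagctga
Serpine2, chr9:88637203-88637452, minus strand: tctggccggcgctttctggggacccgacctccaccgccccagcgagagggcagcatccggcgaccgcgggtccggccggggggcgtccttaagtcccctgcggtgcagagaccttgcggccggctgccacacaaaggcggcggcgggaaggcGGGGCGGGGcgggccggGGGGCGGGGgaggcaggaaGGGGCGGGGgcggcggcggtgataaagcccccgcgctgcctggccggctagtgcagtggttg
The window of Atp6v1b1 held 1 forkhead match, starting at base 158, and that of Serpine2 held 3 GC boxes, the first starting at base 153 and the last at base 189. Neither motif occurred in the window of Slc26a4. Of all 33469 windows of this length in the RefSeq table, 3.21% held the forkhead motif and 9% the GC box. Of 18 intercalated cell genes, 14 had a window, 1 of which held the forkhead motif and 1 the GC box.

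Slc26a4, the chloride and bicarbonate exchanger pendrin of base-secreting intercalated cells, was at 312, 179, 338 and 356 CPM in the 4 CM rats and at 445 to 556 CPM (median 478) in the untreated rats. Every CM rat lay below every untreated rat, CM rat 2 the lowest. The log2 fold change was -0.72 (SE 0.19), and -0.50 (SE 0.21) without CM rats 1 and 2, and the adjusted p of edgeR's quasi-likelihood test was 0.665. Atp6v1b1, the kidney form of the B subunit of the vacuolar proton pump, was at 312, 232, 302 and 286 CPM against 328 to 442 CPM (median 379). Its groups did not overlap either, and the log2 fold change was -0.45 (SE 0.12, adjusted p of the same test 0.711). Further pump subunits, Atp6v1g3 and Atp6v0d2, gave log2 fold changes of -0.46 and -0.43, each with 1 or more CM rats within the range of the untreated rats. Atp6v0d2 was at 109 CPM in CM rat 1 and at 83.1 to 88.8 CPM in the other CM rats, against 101 to 148 CPM. Slc4a9, a basolateral anion exchanger of base-secreting cells, was at 198, 153, 262 and 235 CPM against 208 to 378 CPM, with a log2 fold change of -0.49. Foxi1, the transcription factor that specifies intercalated cells, was at 137, 114, 120 and 125 CPM against 135 to 179 CPM. Here CM rat 1 lay within the untreated range and the other CM rats below it, and the log2 fold change was -0.31 (SE 0.17). Slc4a1, the anion exchanger of acid-secreting cells, went the other way in 2 rats, with 535 and 468 CPM in CM rats 1 and 2, 276 and 230 CPM in CM rats 3 and 4, and 158 to 362 CPM in untreated rats.

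A further list of 11 intercalated cell genes was drawn up after these values were seen and is a description. Of these, 9 had a log2 fold change below 0, the median was -0.35, and without CM rats 1 and 2 it was -0.32. Rhcg, an ammonia channel, was at 334, 228, 264 and 294 CPM against 303 to 425 CPM in untreated rats, so that CM rat 1 overlapped them. Insrr, a receptor that responds to alkaline pH, was at 121, 74.5, 149 and 146 CPM against 137 to 229 CPM. Atp6v1c2, another pump subunit, was at 64.6, 49.5, 46.9 and 51.2 CPM against 58.1 to 85.1 CPM. Aqp6 and Dmrt2 were the members above 0, at log2 fold changes of 0.28 and 0.05, and both were high in CM rats 1 and 2. Car2, the cytosolic carbonic anhydrase, had a log2 fold change of -0.01.

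Of the 9 principal cell markers, 4 had an unadjusted p below 0.05 as lower and none as higher, where 3.75% of all genes were lower and 2.84% higher. These were the 3 subunits of the epithelial sodium channel and Hsd11b2, the enzyme that keeps cortisol-like steroids off the mineralocorticoid receptor. Hsd11b2 was at 886, 594, 1041 and 940 CPM after ASC-derived CM and at 978 to 1380 CPM (median 1278) in untreated rats. CM rat 3 lay within the untreated range and the other CM rats below it, and the log2 fold change was -0.52 (SE 0.16). Scnn1a, the alpha subunit, was at 136, 102, 171 and 145 CPM against 153 to 237 CPM. Scnn1b, the beta subunit, was at 159, 130, 199 and 186 CPM against 196 to 269 CPM (median 233). Scnn1g, the gamma subunit, was at 121, 91.0, 109 and 118 CPM against 113 to 171 CPM. In each subunit 1 or 2 CM rats lay within the untreated range. The water channel Aqp2 and the vasopressin receptor Avpr2 differed by -0.04 (SE 0.27) and -0.14 (SE 0.16), and their groups overlapped. The median of the list was -0.14, and -0.36 without CM rats 1 and 2, when no member and 1.8% of all genes were lower at an unadjusted p below 0.05. With the podocyte score as a covariate, 3 of the 4 still had one, where 3.05% of all genes were lower at this p.

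**Figure D3:**
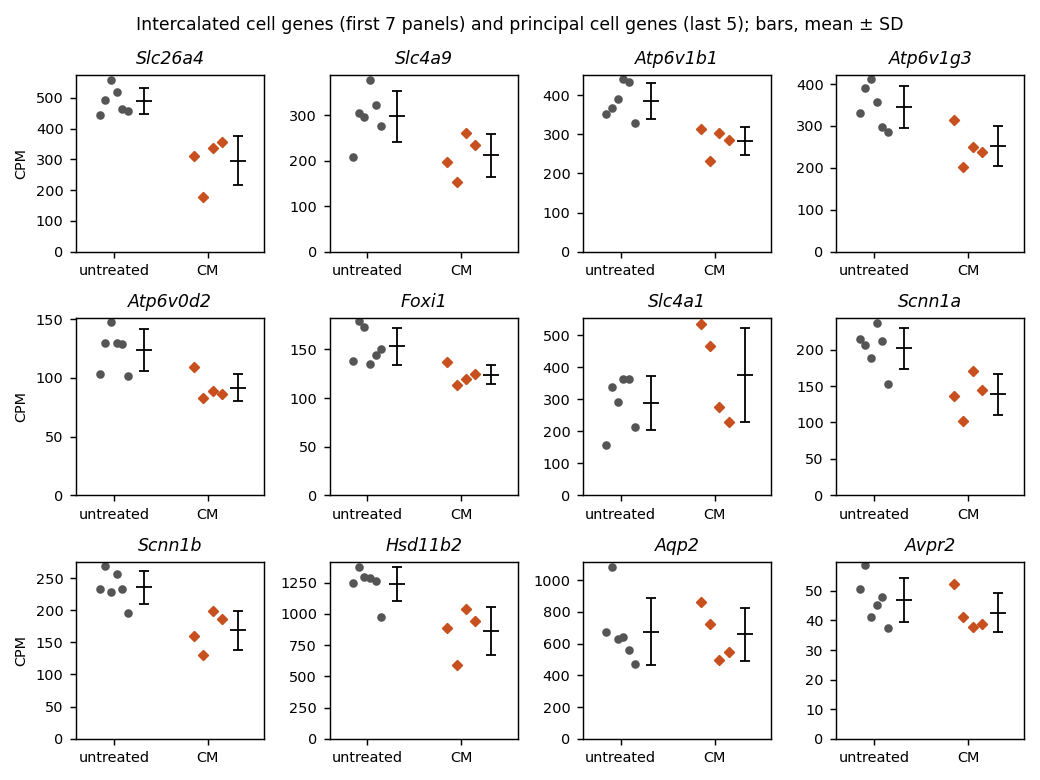
CPM of 7 intercalated cell genes and 5 principal cell genes in each untreated rat (grey points) and each CM rat (orange diamonds, rats 1 to 4 from left to right), with the mean and SD of each group beside them. All CM rats lie below all untreated rats for Slc26a4 and Atp6v1b1, while the groups overlap for Slc4a1, Aqp2 and Avpr2.

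In the segments before the collecting duct many genes differed mostly in CM rats 1 and 2, and some also in CM rats 3 or 4. Slc12a1, the sodium, potassium and chloride cotransporter of the thick ascending limb, was at 2112 and 1846 CPM in CM rats 1 and 2, 962 and 547 CPM in CM rats 3 and 4, and 381 to 1023 CPM in untreated rats. Umod, the urinary protein uromodulin of the same segment, was at 7945, 5152, 2344 and 1639 CPM against 1294 to 3445 CPM. Its log2 fold change of 0.67 (SE 0.40) turned to -0.43 without CM rats 1 and 2. Slc12a3, the sodium and chloride cotransporter of the distal convoluted tubule, ran opposite, at 680 and 861 CPM in CM rats 1 and 2, 2304 and 1670 CPM in CM rats 3 and 4, and 1965 to 3077 CPM in untreated rats. Calb1, a calcium-binding protein of the distal convoluted and connecting tubule, was at 221, 125, 417 and 299 CPM against 394 to 764 CPM (median 555). CM rat 3 overlapped the untreated rats, CM rat 4 lay below them as well, and the log2 fold change was -1.09 (SE 0.36), and -0.67 (SE 0.43) without CM rats 1 and 2. Of the 8 tested markers of the thick limb and distal convoluted tubule, 2 were higher and 3 lower at an unadjusted p below 0.05. Without CM rats 1 and 2 there were 0. Over all genes 2.84% were higher and 3.75% lower, and 0.95% and 1.8% without these 2 rats. The proximal tubule list of 13 genes had a median log2 fold change of 0.30, and of 0.23 without CM rats 1 and 2. Its mean log2 CPM was 8.14, 7.56, 7.90 and 8.36 in the CM rats against 7.19 to 8.21 in untreated rats, so that CM rat 4 was the highest and the other 3 lay within the untreated range. Aqp1 and Slc22a12 had an unadjusted p below 0.05 as higher. Aqp1, a water channel, was at 2176, 1426, 716 and 669 CPM against 442 to 901 CPM. Slc22a12, the urate transporter, was at 819, 421, 219 and 142 CPM against 35.8 to 266 CPM, so that CM rats 1 and 2 lay above all untreated rats in both genes and CM rats 3 and 4 among them. Their differences were 0.15 and 0.23 without these 2 rats. Slc22a8, an organic anion transporter, was at 89.1, 60.8, 173 and 376 CPM against 81.9 to 274 CPM, CM rat 4 above the untreated rats, with a difference of 0.14 (SE 0.46), and of 0.79 (SE 0.48) without CM rats 1 and 2. Slc22a6, a related transporter, differed by 0.65 both with and without them. Some genes of the first part of the tubule were low in CM rats 1 and 2, with Slc5a2, the glucose transporter that SGLT2 inhibitors block, at 33.4 and 28.3 CPM in CM rats 1 and 2, 126 and 210 CPM in CM rats 3 and 4, and 55.8 to 229 CPM in untreated rats. Podocyte markers had a median log2 fold change of -0.50 with 8 of 8 members below 0, and 0.13 without CM rats 1 and 2. Endothelial markers had a median of -0.23, and 0.19 without them. None of these 18 genes had an unadjusted p below 0.05.

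Serpine2 encodes protease nexin-1, a secreted inhibitor of thrombin and plasminogen activators. It was at 38.6, 39.6, 29.3 and 28.7 CPM in the 4 CM rats and at 13.9 to 18.6 CPM (median 15.7) in the untreated rats. All CM rats lay above all untreated rats, and CM rats 1 and 2 were the highest. The log2 fold change was 1.09 (SE 0.24), and the adjusted p was 0.451 by edgeR's quasi-likelihood test and 0.014 by DESeq2. Without CM rats 1 and 2 it was 0.86 (SE 0.29). The CM rats had a mean of 34.0 ± 5.85 CPM (SD, n = 4), against 17.9 CPM after ASC i.p. and 17.1 CPM after ASC i.v. Serping1, the C1 inhibitor that restrains complement and kallikrein, was at 427, 404, 435 and 462 CPM against 265 to 348 CPM (median 308). Its groups did not overlap in CPM, the log2 fold change was 0.49 (SE 0.11, edgeR's quasi-likelihood adjusted p = 0.563), and without CM rats 1 and 2 it was 0.54. On the deposited TPM values the groups overlapped, with CM rat 1 at 302 and untreated rat 6 at 308. The mean of Serping1 was 380 CPM after ASC i.p. and 372 CPM after ASC i.v.

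In CPM, other genes also lay above all untreated rats in every CM rat. On the deposited TPM values the groups overlapped for Fgd3, Lrp4, Pip4k2a, Zc3h8, Fchsd2 and Ccm2. Mast3, a microtubule-associated kinase, was at 105, 108, 91.3 and 93.8 CPM against 61.5 to 80.7 CPM (median 78.2), which is a difference of 0.39 on the log2 scale (SE 0.08, adjusted p = 0.413 by edgeR and 0.014 by DESeq2). Fgd3, of a family of exchange factors for Cdc42, was at 24.1, 30.2, 32.7 and 30.0 CPM against 19.8 to 23.1 CPM (median 22.6). The difference was 0.40 (SE 0.10), with an adjusted p of 0.563 from edgeR and 0.0424 from DESeq2. Lrp4, a receptor of the LDL receptor family, was at 39.9, 36.0, 41.7 and 36.0 CPM against 27.6 to 32.7 CPM, and its mean was 27.9 and 30.7 CPM after ASC i.p. and i.v. Pcsk6, a proprotein convertase, differed by 1.63 (SE 0.51), but CM rats 1 and 2 stood at 23.5 and 16.4 CPM and CM rats 3 and 4 at 6.10 and 5.69 CPM, against 3.26 to 5.47 CPM. Alx1, a homeobox gene, was at 5.89, 8.59, 3.73 and 2.69 CPM against 1.05 to 2.61 CPM. Pip4k2a, Zc3h8, Fchsd2, Ccm2 and Zfp444 had log2 fold changes of 0.29, 0.30, 0.25, 0.18 and 0.26. The differences without CM rats 1 and 2 were 0.28 for Mast3, 0.50 for Fgd3 and 0.35 for Lrp4. For Pcsk6 the value was then 0.50 (SE 0.59), for Alx1 0.75 (SE 0.55), for Ccm2 0.12 and for Zfp444 0.15.

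Of the genes below all untreated rats, Pcdhga7 and Med12l had the smallest p. Pcdhga7, a cell adhesion gene of the gamma protocadherin cluster, was at 9.79, 12.4, 11.4 and 10.9 CPM against 16.3 to 23.4 CPM (median 17.8). The difference was -0.77 (SE 0.14), with an adjusted p of 0.194 from edgeR and 0.00152 from DESeq2. The genes of this cluster share their last exons, so that the split of reads between them is uncertain. Med12l, a relative of a Mediator kinase module subunit, was at 22.6, 18.9, 27.9 and 26.3 CPM against 32.7 to 48.0 CPM (median 38.9). It differed by -0.73 (SE 0.14), with an adjusted p of 0.194 from edgeR and 0.00188 from DESeq2, and its mean was 33.0 and 31.3 CPM after ASC i.p. and i.v. S100a1, a calcium-binding protein, was at 46.6, 30.8, 42.6 and 40.6 CPM against 52.2 to 72.9 CPM, with a log2 fold change of -0.54. Dsc2, a desmosomal cadherin, was at 14.5, 12.6, 15.1 and 17.9 CPM against 18.1 to 27.4 CPM. Pgam2, the muscle form of a glycolytic mutase, was at 7.32, 5.22, 8.25 and 10.5 CPM against 10.8 to 16.7 CPM. Me3, the mitochondrial malic enzyme, was at 48.4, 48.5, 49.4 and 43.5 CPM against 54.0 to 61.5 CPM. Retreg1, a receptor for the turnover of the endoplasmic reticulum, was at 72.0, 66.1, 73.6 and 84.7 CPM against 88.1 to 99.1 CPM. Snurf, which overlaps Snrpn and may share its reads, Krt73, Slc46a3 and Tmem151a had log2 fold changes of -0.37, -0.81, -0.52 and -0.49. The differences without CM rats 1 and 2 were -0.77 for Pcdhga7, -0.56 for Med12l, -0.50 for S100a1, -0.42 for Dsc2, -0.59 for Pgam2 and -0.33 for Me3. In several of these genes the gap between the groups was narrow, as in Dsc2 with 17.9 against 18.1 CPM. On the deposited TPM values the groups overlapped for Med12l, S100a1, Dsc2, Pgam2, Retreg1, Krt73 and Tmem151a. S100a1 was then at 514, 242, 573 and 324 TPM in the CM rats, against 408 to 940 TPM in untreated rats.

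**Figure D4:**
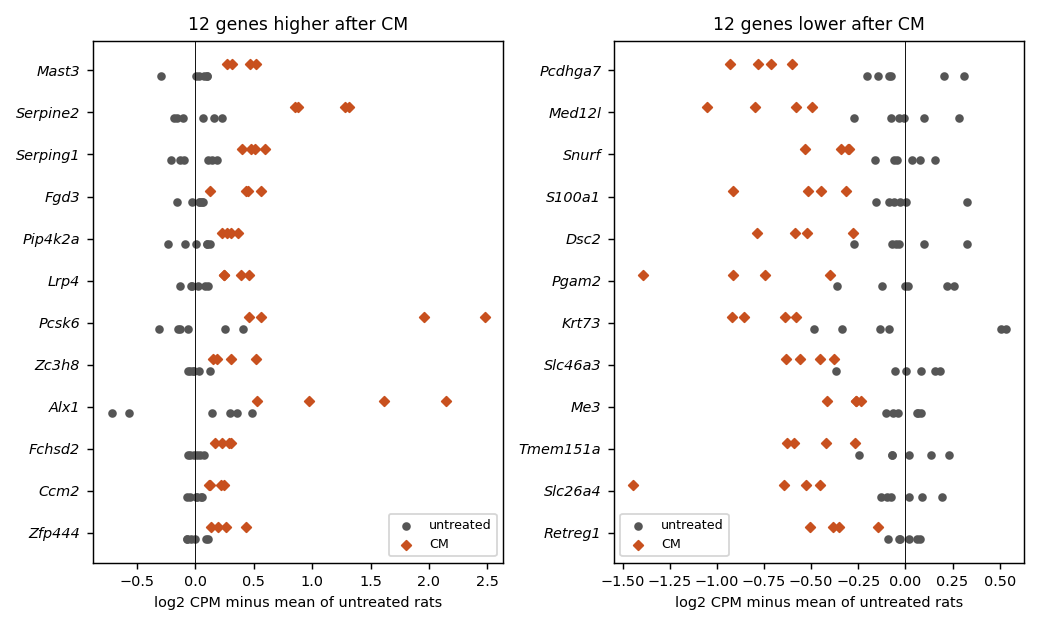
Log2 CPM of the 12 higher genes (left) and the 12 lower genes (right) with the smallest p whose groups do not overlap, as the difference from the mean of the untreated rats; each point is 1 rat, grey for untreated and orange for CM. Serpine2 shows a wide gap between the groups, and Pcsk6 and Alx1 a wide spread among the CM rats. The genes were chosen for not overlapping, so that this separation is a description.

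Fibroblast markers tended to be higher, mainly in CM rats 3 and 4. Of 10 markers, 9 had a log2 fold change above 0, and the median was 0.48. At an unadjusted p below 0.05, 2 of them were higher, where 2.84% of all genes were. The mean log2 CPM of the list was 6.10, 6.72, 7.52 and 7.20 in the CM rats, against 6.56 to 6.87 in untreated rats. The median fold change ranged from 0.11 without CM rat 3 to 0.62 without CM rat 1. It was 0.69 without CM rats 1 and 2, with 3 members higher at this p, where 0.95% of all genes were. With the podocyte score as a covariate it was 0.78, with 6 members higher at this p, where 2.25% of all genes were. Pdgfra, a receptor of platelet-derived growth factor on fibroblasts, was at 96.9, 123, 151 and 141 CPM against 81.7 to 120 CPM (median 89.0), CM rat 1 overlapping the untreated rats. Its log2 fold change was 0.47 (SE 0.19, edgeR's quasi-likelihood adjusted p = 0.711). Dcn, the matrix proteoglycan decorin, was at 175 and 198 CPM in CM rats 1 and 2, within the untreated range of 155 to 212 CPM, and at 336 and 375 CPM in CM rats 3 and 4. The log2 fold change of Dcn was 0.60 (SE 0.28), and 0.98 (SE 0.31) without CM rats 1 and 2. Col1a1, the main chain of type I collagen, was at 224, 526, 455 and 441 CPM against 238 to 310 CPM. Col3a1 was at 266, 509, 643 and 560 CPM against 292 to 446 CPM. In both collagens CM rat 1 was below the untreated rats and the other CM rats above them. Acta2, the smooth muscle actin of myofibroblasts, was at 77.0, 70.7, 349 and 167 CPM against 110 to 207 CPM, giving a log2 difference of 0.02 (SE 0.43). Postn, a matrix protein of activated fibroblasts, had a log2 fold change of -0.54 (SE 0.50).

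In the wider list of 37 collagens, laminins and matrix receptors, 1 gene was higher and 3 were lower at an unadjusted p below 0.05. Over all genes 2.84% were higher and 3.75% lower. The median of the list was -0.04. With CM rats 1 and 2 left out no gene was higher or lower at this p and the median was 0.13. With the podocyte score as a covariate 5 were higher and 2 lower, where 2.25% and 3.05% of all genes were. The median was then 0.07. Lama1, a laminin chain of tubular basement membranes, was at 18.2, 22.6, 23.5 and 27.0 CPM against 27.2 to 35.8 CPM. Its mean after ASC i.p. and i.v. was 24.2 and 21.7 CPM, so that the ASC groups stood closer to the CM rats than to the untreated rats. Itgb6, the epithelial integrin subunit that activates TGF-beta, was at 58.3, 90.7, 99.9 and 101 CPM against 104 to 141 CPM. Sdc4, a cell surface proteoglycan, was at 597 to 636 CPM against 660 to 818 CPM. Vtn, the plasma protein vitronectin, was at 3.34, 3.53, 2.73 and 2.21 CPM against 1.11 to 2.12 CPM. Of 19 tested matrix proteases and inhibitors, Serpine2 and Plau were higher and Timp4 lower at an unadjusted p below 0.05. Plau, the urokinase of the tubule, was at 1508, 1390, 925 and 712 CPM against 707 to 977 CPM, CM rats 1 and 2 above the untreated rats.

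The medians of 4 lists of mitochondrial energy metabolism were above 0 with all 4 CM rats and below 0 without CM rats 1 and 2, and no gene of these lists had an unadjusted p below 0.05 in either direction. Of 34 tested genes of respiratory complex I, 33 had a log2 fold change above 0, with a median of 0.10 and a largest value of 0.22. Without CM rats 1 and 2 the median was -0.16. The mean log2 CPM of the list was above all untreated rats in CM rat 1, while CM rats 2, 3 and 4 lay within their range. Complexes III to V (34 genes), the citrate cycle (18 genes) and fatty acid oxidation (20 genes) had medians of 0.09, 0.09 and 0.23, and of -0.18, -0.10 and -0.05 without CM rats 1 and 2. In glycolysis (17 genes) the median was -0.01, and -0.10 without CM rats 1 and 2, and Pfkm, the muscle form of phosphofructokinase, was the 1 gene at an unadjusted p below 0.05, at 114, 101, 129 and 126 CPM against 121 to 170 CPM. Gluconeogenesis (7 genes) had a median of 0.58. It was 0.46 without CM rats 1 and 2, 0.24 without CM rat 4, 0.24 with 1 surrogate variable and 0.20 with the proximal tubule score as a covariate, and no member had an unadjusted p below 0.05. Fbp1, the fructose bisphosphatase of this pathway, was at 574, 292, 225 and 349 CPM against 99.8 to 270 CPM. CM rat 3 overlapped the untreated rats and the other 3 lay above them. Pck1, the phosphoenolpyruvate carboxykinase, was at 590, 239, 310 and 810 CPM against 133 to 608 CPM and overlapped them in 3 of 4 rats. Among 26 PPAR receptors and targets, Cyp4a8 was higher and Fabp3 lower at an unadjusted p below 0.05. Over all genes 2.84% were higher and 3.75% lower. Cyp4a8, a fatty acid hydroxylase whose close relatives may share its reads, was at 1538, 1086, 402 and 308 CPM against 158 to 588 CPM, and its difference of 1.24 was 0.01 without CM rats 1 and 2. Ppara, the receptor itself, had a log2 fold change of 0.18 (SE 0.26).

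**Figure D5:**
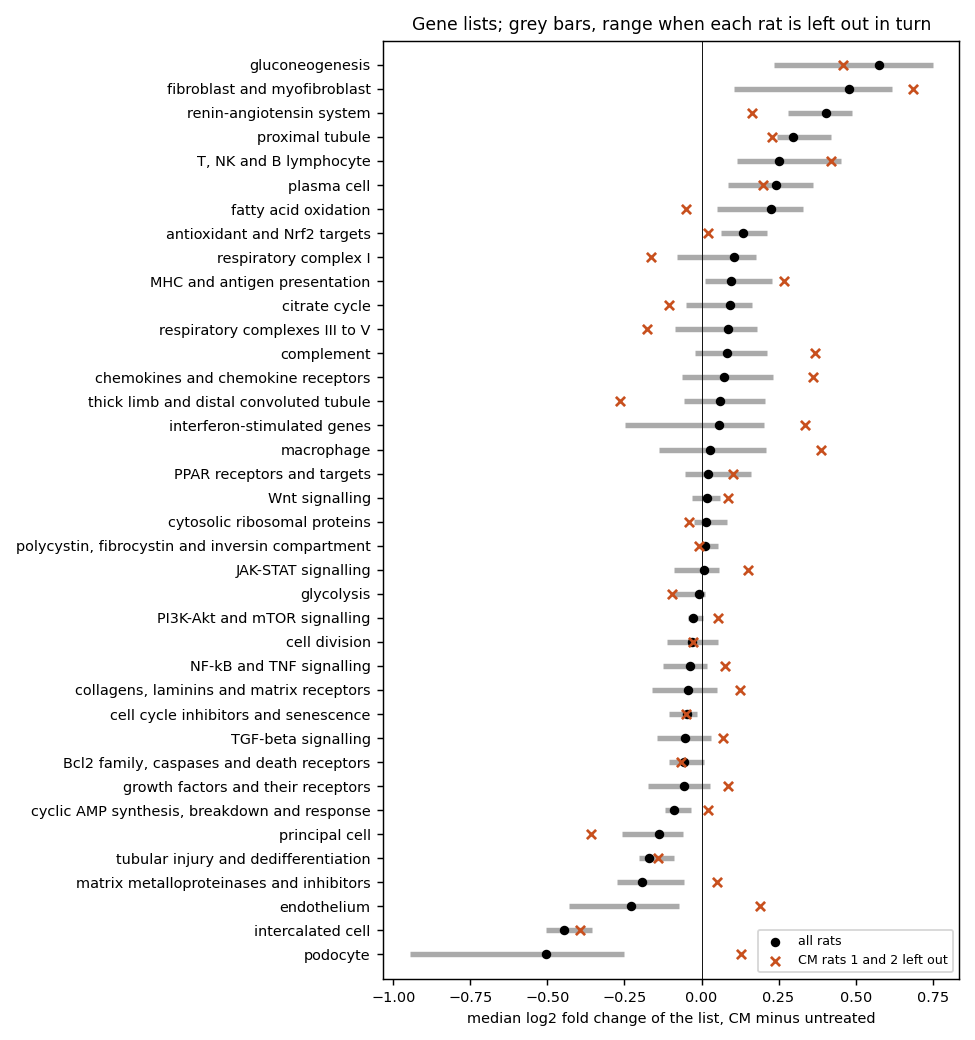
Median log2 fold change of CM over untreated rats for each gene list (black points), the range of the median with 1 rat omitted at a time (grey bars) and the median without CM rats 1 and 2 (orange crosses). The crosses of the respiratory, citrate cycle and fatty acid lists lie on the other side of 0, while that of the intercalated cell list stays at -0.39.

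No gene of the lists tied to cyst growth passed the adjustment. Over all genes 2.84% were higher and 3.75% lower at an unadjusted p below 0.05. Of 34 genes of cyclic AMP synthesis, breakdown and response, the signal that drives cyst fluid secretion, 24 had a log2 fold change below 0, none had an unadjusted p below 0.05, and the median was -0.09 (0.02 without CM rats 1 and 2). With the podocyte score as a covariate 4 of these genes were higher and none lower at this p, and the median was -0.009. Of 34 genes of TGF-beta signalling, 4 were lower and none higher, with a median of -0.05. None was lower or higher without CM rats 1 and 2 and the median was 0.07, and with the podocyte score as a covariate 3 were higher, none was lower and the median was 0.06. Tgfb2, one of its ligands, was at 22.5, 24.6, 41.4 and 44.2 CPM against 35.8 to 91.4 CPM, CM rats 3 and 4 within the untreated range, and its difference of -0.74 was -0.37 without CM rats 1 and 2. Tgfb1, the ligand best known in fibrosis, had a log2 fold change of 0.12 (SE 0.24). In Wnt signalling 1 of 38 genes was higher and 1 lower, in PI3K-Akt and mTOR signalling 0 of 23, and in JAK-STAT signalling 0 of 23. Without CM rats 1 and 2, 2 of the Wnt genes were higher and none lower. With the podocyte score as a covariate 5 Wnt genes were higher and none lower. In that setting 1 gene of PI3K-Akt and mTOR signalling and 1 of JAK-STAT signalling were higher, and none lower. Of 31 growth factors and receptors, Pdgfra was higher and Fgfr2, an epithelial receptor of fibroblast growth factors, was lower. With the podocyte score as a covariate 3 of them were higher and none lower. Over 15 genes of the polycystins and the inversin compartment, the cilia region where the Anks6 protein is found, the median log2 fold change was 0.01. Of them 1 was higher. Pkhd1, the fibrocystin gene, was not among the genes measured. Pkd1 and Pkd2, the polycystin genes, had log2 fold changes of 0.07 (SE 0.17) and -0.05 (SE 0.05). Here and in the next paragraphs higher and lower refer to an unadjusted p below 0.05. The shares of all genes given above also hold for the next paragraphs. Without CM rats 1 and 2 the shares were 0.95% higher and 1.8% lower. With the podocyte score as a covariate they were 2.25% and 3.05%.

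None of 29 cell division genes was higher or lower, and Mki67, the gene of the proliferation marker Ki67, was at 15.6, 32.4, 26.8 and 18.2 CPM against 17 to 27.8 CPM. Among 22 cell cycle inhibitors and senescence genes, Cdkn1a and Mdm2, which are both targets of p53, were lower. Cdkn1a, the inhibitor p21, was at 30.4, 46.5, 59.6 and 64.4 CPM against 64.6 to 80.5 CPM (median 70.7). The groups did not overlap, but CM rat 4 and the lowest untreated rat differed by less than 1%. The log2 fold change was -0.51 (SE 0.18, edgeR's quasi-likelihood adjusted p = 0.711), and -0.21 (SE 0.18) without CM rats 1 and 2. Mdm2 differed by -0.20, and by -0.06 without them. Of 34 genes of the Bcl2 family, caspases and death receptors, Casp12 and Birc2 were lower, by -0.47 and -0.19, and by -0.23 and -0.14 without CM rats 1 and 2. Birc2, an inhibitor of apoptosis, was at 42.0, 47.6, 48.4 and 48.1 CPM against 50.1 to 55.3 CPM. Of 17 genes of tubular injury and dedifferentiation, 13 had a log2 fold change below 0, none had an unadjusted p below 0.05, and the median was -0.17 (-0.14 without CM rats 1 and 2). Havcr1, the injury marker KIM-1, was at 137, 132, 115 and 140 CPM against 95.2 to 284 CPM. Lcn2, the marker NGAL, was at 105, 208, 140 and 157 CPM against 122 to 269 CPM. Spp1, osteopontin, was at 7194 to 10641 CPM against 7801 to 13855 CPM. Ccn2, a matrix-inducing protein, was at 129, 169, 230 and 346 CPM against 172 to 452 CPM. For all 4 genes the groups overlapped.

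In the complement list Serping1 and C4a were higher among 23 genes. C4a, a complement component with a close copy in the genome, was at 2097, 2804, 2156 and 2033 CPM against 1690 to 1970 CPM (median 1808), with no overlap and a difference of 0.32 (SE 0.12). The median of the list was 0.08, and 0.37 without CM rats 1 and 2, when 3 of its genes were higher and 0.95% of all genes. With only CM rat 4 left out the median was -0.02. In the chemokine list Cx3cl1, the membrane-bound chemokine fractalkine, was higher among 31 genes, at 266, 271, 313 and 298 CPM against 220 to 265 CPM. Without CM rats 1 and 2, 2 genes of this list were higher. In 26 interferon-stimulated genes, 23 genes of antigen presentation and 10 macrophage markers none was higher or lower, and their medians were 0.06, 0.10 and 0.03. Without CM rats 1 and 2 these medians were 0.33, 0.27 and 0.39. Then 3 of the interferon-stimulated genes were higher, and none of the antigen presentation genes or macrophage markers. With only CM rat 4 left out the medians of these lists were -0.25, 0.01 and -0.14. Of 11 lymphocyte markers 10 had a log2 fold change above 0, with a median of 0.25 and none past an unadjusted p of 0.05, against a median of 0.42 with 1 higher without CM rats 1 and 2. Of 26 genes of NF-kB and TNF signalling, Birc2 was lower. In the antioxidant list 3 of 24 genes were higher, where 2.84% of all genes were. Among them was Gclm, a subunit of the enzyme of glutathione synthesis, at 1629, 918, 386 and 201 CPM against 170 to 507 CPM. Its log2 fold change of 1.43 was 0.02 without CM rats 1 and 2 and turned to -0.03 with the podocyte score as a covariate. In the renin-angiotensin list Ace was higher among 10 genes, at 18.3, 23.4, 13.1 and 10.5 CPM against 7.66 to 12.7 CPM, and its difference of 0.67 was 0.20 without CM rats 1 and 2.

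Set against the mean of both ASC groups, 0 of 12867 genes (0.0%) passed the adjustment after ASC-derived CM and 483 (3.75%) had an unadjusted p below 0.05. The CM rats are the same in both comparisons, so that the values are given side by side and are not independent. Slc26a4 averaged 296 ± 80.3 CPM (SD, n = 4) in the CM rats and 488 ± 42.7 CPM (SD, n = 6) in untreated rats. Its mean was 495 CPM after ASC i.p. and 450 CPM after ASC i.v. Against the ASC groups its log2 fold change was -0.67, and against the untreated rats -0.72. Atp6v1b1 had log2 fold changes of -0.40 and -0.45 in this order, Scnn1b -0.44 and -0.48, and Serpine2 0.96 and 1.09. Lama1 and Casp12 had -0.01 and -0.00 against the ASC groups, and -0.48 and -0.47 against the untreated rats.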

How the data were processed

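RNA from left kidneys that were frozen without perfusion was sequenced by BGISEQ-500. For each rat the authors deposited estimated counts per Entrez gene, not normalized. A second file of the authors holds TPM values, which correct for transcript length and library total. The submitters' processing notes name Trim Galore 0.6.4, kallisto 0.4.6 and the build rn6, with no role or order, and the study's methods name DESeq2 and a human transcript package. Reads of paralogs and overlapping genes may be split between them.

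The estimated counts were rounded (14.1% were not whole). Symbols came from the RefSeq table of GRCr8 (17179 of 17334 genes), used for names only. Genes left by filterByExpr entered the quasi-likelihood test of edgeR 4.0.16 (R 4.3.3, TMM size factors, 4 groups fitted together, contrast CM minus untreated, Benjamini-Hochberg adjustment, threshold 0.05). Log2 CPM used a prior count of 2. The alternatives used DESeq2 1.42.0, limma 3.58.1 on log2(TPM + 1) and sva 3.50.0. The procedure was tested on simulated counts.

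The genes named were, among genes of at least 1 CPM whose groups do not overlap, the 12 higher and 12 lower with the smallest p, the genes called by DESeq2, up to 2 members of each of 42 lists with the smallest p below 0.05, and 12 key genes. Other members were named after their values were seen, as were 5 added lists. The comparison, the genes and the lists were chosen with earlier results of these data known. List counts were read beside the same counts over all genes, and no list was tested. Groups came from the treatment label. The labels describe separate animals, and no pair of CM rats or of untreated rats agreed within sampling noise (lowest chi-square per gene 7.52). The TPM values keep no depth. A few genes that the naming rule or the lists hold are not reported here.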

Additional observations from a re-analysis of the deposited data

Results flagged for a closer look

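In 11 of 214 groups of 4 or 6 rats tested, over 107 results, 1 rat lay far from the others of its group by Dixon's criterion (5.14%, and chance flags about 1 in 20 groups). All values are log2 CPM. In 7 of these groups the item was a gene. Mast3 was lowest in untreated rat 1 at 5.95, against 6.25 and above in the other untreated rats. Snurf was lowest in CM rat 2 at 4.93, against 5.12 to 5.16 in the other CM rats. S100a1 was highest in untreated rat 1 at 6.19, against 5.71 to 5.87. Me3 was lowest in CM rat 4 at 5.45, against 5.60 to 5.63. Hsd11b2 was lowest in untreated rat 6 at 9.93, against 10.29 to 10.43. Pdgfra was highest in untreated rat 6 at 6.91, against 6.36 to 6.54. Birc2 was lowest in CM rat 1 at 5.40, against 5.58 to 5.60. The other 4 were means of gene lists. The urothelial list was highest in CM rat 1 at -0.84 (other CM rats -0.93 to -0.92) and in untreated rat 5 at 1.04 (other untreated rats -1.18 to -0.64). The complement list was highest in untreated rat 6 at 5.79 (others 5.53 to 5.58). The renin-angiotensin list was lowest in untreated rat 1 at 3.23 (others 4.05 to 4.53).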

How the results depend on the processing

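With 4 CM rats of which 2 stood apart, small differences were not detectable. No paired analysis was possible because the rats of the groups are different animals and the labels give no number shared between groups. With no filter, at least 10 counts in every rat, RLE size factors, 1 surrogate variable, covariates, limma-trend and each rat left out, 0 genes passed the adjustment. DESeq2 called 5 genes (3 higher, 2 lower), and a fit of CM and untreated rats alone called 1 higher gene, Serpine2 (adjusted p = 0.0366), with 1328 genes at an unadjusted p below 0.05 (833 higher). That number was 154 higher with the animal number as a covariate and 97 higher with limma-trend on log2(TPM + 1). With 1 rat omitted at a time it ranged from 433 without CM rat 2 to 1404 without CM rat 4 (106 to 716 higher, 285 to 688 lower), and the genes whose groups do not overlap from 216 to 531 (71 to 219 higher, 145 to 312 lower). The deposited TPM gave 178 genes whose groups do not overlap (34 higher, 144 lower). Without CM rats 1 and 2, added after the data were seen, 359 genes had an unadjusted p below 0.05 (124 higher, 235 lower), and 1392 did not overlap (747 higher, 645 lower), since 2 rats overlap less often than 4. Of the named genes, Lcn2 (0.038) and Umod (-0.011) changed sign with 1 surrogate variable, Umod (-0.43) without CM rats 1 and 2, Pkd1 (-0.016) and Mki67 (-0.018) with limma-trend, and Gclm (-0.031) and Umod (-0.22) with the podocyte score as a covariate, also added. With 1 rat left out, Pkd1 (-0.042 to 0.17, negative without CM rat 3 or 4), Mki67 (-0.12 to 0.22, without CM rat 2), Tgfb1 (-0.01 to 0.26) and Ppara (-0.062 to 0.32, both without CM rat 4) changed sign. Apart from single rats left out, 702 values of named genes kept their direction and side of the threshold, 7 changed sign and 6 newly passed it. With single rats left out 645 did so and 5 changed sign. Apart from single rats left out, 68 values of list medians moved by more than 1 SD of the untreated rats and 448 did not. With single rats left out 28 moved and 442 did not. The cause was not tested.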

Other observations

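Markers of tissues around the kidney and of blood were checked in the same rats. The uroplakins and keratins of the urothelium were near 0, with Upk2 at 0.0791 CPM or below in the CM rats and up to 1.13 CPM in untreated rats, and Krt5 at 0.143 to 0.241 CPM against 0.152 to 1.88 CPM. The 4 red cell genes had a median log2 fold change of -0.52, which moved to 0.56 without untreated rat 5. The 3 tested adipocyte genes and the 3 tested genes of the adrenal cortex had medians of -0.16 and 0.10. The 5 tested plasma cell genes had a median of 0.24, and the 76 tested genes of cytosolic ribosomal proteins 0.01, with none at an unadjusted p below 0.05 in these lists.

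Calcium transport of the connecting tubule was described by 6 genes chosen after the data were seen. Slc8a1, the sodium and calcium exchanger of this segment, was at 87.3 and 108 CPM in CM rats 1 and 2, 234 and 181 CPM in CM rats 3 and 4 and 209 to 323 CPM in untreated rats. Trpv5, its apical calcium channel, was at 45.7, 39.7, 135 and 137 CPM against 103 to 179 CPM. Klk1, tissue kallikrein, was at 246, 156, 507 and 536 CPM against 400 to 919 CPM. S100g, a small calcium-binding protein, was at 2.07, 1.04, 0.718 and 1.26 CPM against 0.262 to 1.03 CPM. The median log2 fold change of the 6 genes was -0.75, and -0.22 without CM rats 1 and 2.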
